A study of Mus musculus with 3 samples.

Results

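The genes described here were *Chat*, *Slc18a3*, *Slc5a7*, *Megf10*, *Megf11* and *Fezf1*, 6 of the 18823 genes in the explant count table. They were picked by name as genes of starburst amacrine cells and of acetylcholine signalling. *Slc18a3* was additionally known to be high in explant cells annotated as retinal ganglion cells (RGCs), so the levels of the 6 genes by cell type and their co-detection are given as a description without a test. All 6 had a row in the explant and P0 tables, and 5 had a row in the P14 table, which lists no *Fezf1*.

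Single cells of 3 libraries were examined. The explant library held 5607 cells of 8 wild-type CD1 mouse retinal samples, dissected at embryonic day 14 and cultured for 6 days on membranes with 0, 5, 50 or 500 nM of a selective Sstr2 agonist, 2 samples at each dose. The P0 and P14 libraries held 5706 and 3298 cells of littermates that carried a germline deletion allele of the somatostatin receptor gene *Sstr2* (*em1(IMPC)Mbp*, a C57BL/6NCrl line outbred to CD1), and each consisted of 1 wild-type, 2 heterozygous and 2 homozygous retinal samples. Samples are named explants and retinas below, although the number of retinas in a sample was not stated, so p-values cover only the spread between these samples.

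Samples of a library were labelled with lipid-tagged barcodes and pooled (MULTI-seq), and transcripts were counted by unique molecular identifiers (UMIs) near their 3′ end. Explants held 1281682 to 4237324 UMIs, P0 retinas 8822880 to 10793649 and P14 retinas 1266730 to 5886669. Explants and P0 shared 9 cell barcodes, explants and P14 4, and P0 and P14 7. In P0 neurogenic progenitors, *Sstr2* itself had 112 counts per 1000000 UMIs (CPM) in wild-type cells, 189 and 248 CPM in heterozygous ones and 294 and 375 CPM in those labelled knockout. The targeted gene therefore went against the label at the 3′ end, which checks nothing if it lies outside the deleted part, and the term "labelled knockout" is used throughout. The paper also reports higher *Sstr2* mRNA in these cells of P0 mutants. It proposes that Sstr2 signalling may lower transcription of its own gene, which was not tested here.

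Starburst amacrine cells are the cholinergic neurons of the retina and also release GABA. They form mirror populations in the inner nuclear layer (OFF) and the ganglion cell layer (ON), and shape the direction selectivity of ganglion cells. Chat makes acetylcholine, the vesicular transporter encoded by *Slc18a3* (VAChT) loads it into vesicles, and the choline transporter encoded by *Slc5a7* (CHT) returns choline to the terminal. Megf10 and Megf11 are transmembrane receptors that take part in spacing starburst and horizontal cells into mosaics, and Megf10 is also an engulfment receptor of glia. Fezf1 is a transcription factor of ON starburst cells.

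*Slc18a3* lies inside its functional partner. In GRCm38 (GENCODE M21), *Chat* occupies chr14:32408203-32465989 on the minus strand, and *Slc18a3*, a gene of 1 exon, occupies chr14:32462438-32464850 on the same strand, within intron 1 of *Chat*, which is 4893 bp long. No *Chat* exon overlaps the *Slc18a3* exon, but an unspliced *Chat* transcript would run through it, and UMIs from such a transcript cannot be told apart from those of *Slc18a3*. *Slc5a7* lies elsewhere, at chr17:54273590-54299034 on the minus strand, *Megf11* at chr9:64385626-64709205 on the plus strand and *Fezf1* at chr6:23245044-23248362 on the minus strand. The 250 bases before the start of *Slc18a3* and of *Slc5a7* are shown because these cholinergic genes were detected in different cells (GRCm38.p6, sequences from RefSeq, in which 4 of the 6 genes had an entry, 5′ to 3′ on the minus strand). The *Slc18a3* stretch is also part of the *Chat* intron. Capitals mark the GC box GGGCGG, read here on the opposite strand.
Slc18a3, chr14:32464851-32465100: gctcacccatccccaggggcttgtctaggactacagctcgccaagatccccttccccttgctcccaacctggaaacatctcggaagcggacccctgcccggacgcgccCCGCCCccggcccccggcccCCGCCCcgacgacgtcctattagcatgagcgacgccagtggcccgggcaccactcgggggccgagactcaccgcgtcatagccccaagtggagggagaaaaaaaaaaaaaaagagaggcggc
Slc5a7, chr17:54299035-54299284: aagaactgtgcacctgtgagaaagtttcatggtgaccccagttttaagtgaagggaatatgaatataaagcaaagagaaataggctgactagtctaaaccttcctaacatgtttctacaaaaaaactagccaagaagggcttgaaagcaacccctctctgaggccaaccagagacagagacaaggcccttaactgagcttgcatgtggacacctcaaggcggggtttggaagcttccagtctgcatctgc
The *Slc18a3* stretch was 66.0% G or C with 21 CpG dinucleotides and 2 GC boxes, and 84.5% of 32851 RefSeq promoters of this length had a lower G and C content. The *Slc5a7* stretch was 45.6% G or C with 1 CpG and no GC box, and 25.7% of promoters had a lower content. A GC box on either strand was found in 32.7% of all promoters. The homeodomain core TAATTA (4.84% of promoters) and the E-box CAGCTG (13.0%) were searched on both strands and were in neither window.

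*Slc18a3* had the most UMIs of the 3 cholinergic genes in explants and at P0, and the cell type that held them differed. In explants, 51 of its 63 UMIs were in cells annotated as RGCs, where 32 of 200 cells, or 16.0% (95% Clopper-Pearson interval 11.2 to 21.8, for counting error only), held at least 1 UMI. In the other explant types the share was 0.361% of photoreceptors (6 of 1662), 0.292% of amacrine cells (4 of 1372), 0.147% of neurogenic progenitors (1 of 682) and 0.0591% of primary progenitors (1 of 1691), and the intervals of these 4 overlapped. The shares in photoreceptors and progenitors, which should lack the gene, give the level of background, at median depths of 2642.5 to 4548 UMIs per cell against 3079.5 in the annotated RGCs. Thinned to 2000 UMIs per cell, 21 of 195 annotated RGCs (10.8%) and 2 of 1358 amacrine cells kept a *Slc18a3* UMI, with 5 and 14 shallower cells left out.

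At P0 the UMIs were in amacrine cells. *Slc18a3* had 34 UMIs in 11 of 1013 amacrine cells, or 1.09% (interval 0.543 to 1.93), and 1 UMI in 2797 primary progenitors. It was not detected in 85 RGCs, which allows a share of cells with a UMI of up to 4.25% (exact upper bound), although these were the deepest P0 cells, with a median of 24853 UMIs. The 11 cells came from all 5 retinas, with 3 in the wild type, 2 and 1 in heterozygous retinas and 2 and 3 in retinas labelled knockout. At P14 a single UMI was found, in a bipolar cell, and 0 of 68 amacrine cells held one, which allows a share of cells with a UMI of up to 5.28%. These limits cover counting error only and do not bound the share of cells that express the gene.

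*Chat* was sparse everywhere. Explants held 7 *Chat* UMIs in 6 annotated RGCs (3%), 4 UMIs in 4 amacrine cells (0.292%), 3 in primary progenitors, 2 in neurogenic progenitors and none in photoreceptors. P0 retinas held 4 *Chat* UMIs, each in a different amacrine cell, and 0 of 1142 photoreceptors and 0 of 85 RGCs held one. At P14, 5 of the UMIs were in 2 amacrine cells of 1 retina labelled knockout and 2 were in rods. *Slc5a7* was found in other cells: at P0 it had 8 UMIs in 5 RGCs (5.88%, interval 1.94 to 13.2), 1 cell in each retina, and 11 UMIs in 10 primary progenitors (0.358%), but 1 UMI in amacrine cells, in a cell without *Slc18a3*. Its share at P0 in RGCs was above the upper bound in amacrine cells (0.549%), and its level was 3.49 CPM in RGCs, 0.413 CPM in primary progenitors and 0.121 CPM in amacrine cells. RGCs were deeper than amacrine cells, with medians of 24853 and 7332 UMIs, and thinned to 2000 UMIs 1 of 85 RGCs kept a *Slc5a7* UMI. The explants held 1 *Slc5a7* UMI, in an annotated RGC without *Slc18a3*, and the P14 retinas held 1 each in a bipolar cell, a Müller glial cell and a rod.

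**Figure D1:**
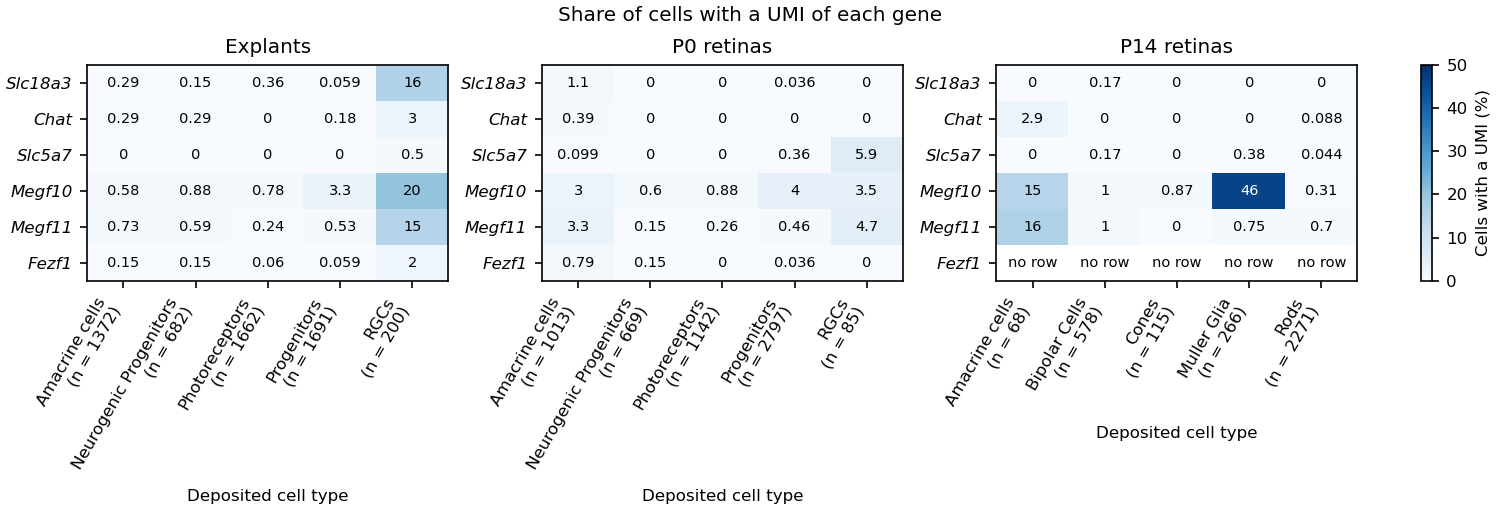
Share of cells (%) with at least 1 UMI of each gene (rows) in each deposited cell type (columns, with the number of cells) of the explant, P0 and P14 libraries; the colour scale runs from 0 to 50%, and "no row" marks *Fezf1*, absent from the P14 table. Within the explants, *Slc18a3*, *Megf10* and *Megf11* are highest in cells annotated as RGCs (16, 20 and 15%), and *Megf10* reaches 46% in P14 Müller glia.

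The mosaic receptors were detected more widely. *Megf10* lies at chr18:57133090-57297467 on the plus strand (GRCm38). In explants *Megf10* had 66 UMIs in 40 annotated RGCs (20.0%, interval 14.7 to 26.2) and *Megf11* had 50 UMIs in 30 of them (15.0%, interval 10.4 to 20.7), against 0.583% and 0.729% of amacrine cells. Primary progenitors of explants held *Megf10* in 3.25% of cells, above the 0.583 to 0.880% of the other types apart from annotated RGCs, and *Megf11* in 0.532%. At P0 *Megf10* was found in 111 primary progenitors (3.97%), 30 amacrine cells (2.96%) and 3 RGCs (3.53%), whose intervals overlapped. The RGCs were deeper, with a median of 24853 UMIs against 8759 in primary progenitors and 7332 in amacrine cells. The *Megf10* level was 4.50 CPM in primary progenitors, 7.96 CPM in amacrine cells and 1.31 CPM (3 UMIs) in RGCs. Thinned to 2000 UMIs per cell, 28 of 2795 primary progenitors, 12 of 1013 amacrine cells and 0 of 85 RGCs held *Megf10*. *Megf11* was found at P0 in 33 amacrine cells (3.26%, interval 2.25 to 4.54) against 0.465% of primary progenitors (interval 0.248 to 0.793). At P14, 123 of 266 Müller glia (46.2%, interval 40.1 to 52.4) held a *Megf10* UMI, or 58.7 CPM, against 0.308% of rods. *Megf11* at P14 was at 182 CPM in amacrine cells and at 0.565 CPM in Müller glia. Müller glia were the deepest P14 cells, with a median of 15108 UMIs. Thinned to 2000 UMIs per cell, 21 of 248 Müller glia (8.47%), 4 of 63 amacrine cells (6.35%) and 0.203% of rods held *Megf10*, with 18, 5 and 296 shallower cells left out.

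*Fezf1* had 6 UMIs in 4 annotated RGCs of the explants and 5 UMIs in the other types. At P0, 27 of its UMIs were in 8 amacrine cells (0.790%, interval 0.342 to 1.55), with 1 UMI each in a primary and a neurogenic progenitor.

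In explants, the cells annotated as RGCs fell into sets with little overlap. The RNA-binding protein gene *Rbpms*, a general RGC marker, was found in 114 of the 200 cells, and 53 cells held *Slc18a3*, *Megf10* or *Megf11*, but 4 cells held both. One cell held *Rbpms* and *Slc18a3*. Of the 32 cells with *Slc18a3*, 24 held *Megf10* (75.0%), 18 *Megf11* (56.2%), 4 *Chat* (12.5%) and 4 *Fezf1* (12.5%), against 16 (9.52%), 12 (7.14%), 2 (1.19%) and 0 of the 168 cells without it. Of the 200 cells, 18 held exactly 2 of the 6 genes, 13 held 3 and 5 held 4. Cells with 2 or more made up 18.0% of annotated RGCs (interval 12.9 to 24), 0.0729% of explant amacrine cells (1 cell) and 0.0602% of photoreceptors (1 cell).

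The annotated RGCs with *Slc18a3* mostly held *Isl1*, *Sox2* and *Tfap2b*, and few RGC transcripts. *Isl1*, a LIM-homeodomain factor of starburst, bipolar and ganglion cells, was found in 32 of 32 cells with *Slc18a3* and 101 of 168 without (60.1%). *Sox2*, a factor of progenitors, glia and starburst cells, was in 27 (84.4%) and 30 (17.9%). *Tfap2b*, an amacrine and horizontal cell factor, was in 31 (96.9%) and 43 (25.6%), and *Neurog2*, a proneural factor, in 30 (93.8%) and 24 (14.3%). Among RGC transcripts, *Gap43*, which encodes a growth cone protein, was in 6 (18.8%) and 146 (86.9%), *Rbpms* in 1 (3.12%) and 113 (67.3%), the neurofilament gene *Nefl* in 3 (9.38%) and 88 (52.4%), and *Pou4f2*, an RGC factor, in 1 (3.12%) and 30 (17.9%). Summed over 12 RGC markers, the cells with *Slc18a3* had 403 CPM and those without 4453 CPM, and over 9 amacrine markers 2443 and 1075 CPM. Of the 315 amacrine marker UMIs in the cells with *Slc18a3*, *Tfap2b* made up 138 and *Pax6* 116. *Pax6* was not called by edgeR (log2 fold change 0.30, adjusted p = 0.375). The same sum was higher in amacrine cells without *Slc18a3*, at 4634 CPM in explants and 5086 CPM at P0. In P0 amacrine cells with *Slc18a3* it was 2741 CPM. Neurogenic progenitor markers summed to 908 and 271 CPM, of which *Neurog2* made up 791 and 118 CPM. For comparison, all 85 RGCs at P0 held *Rbpms* and *Gap43*, 54 held *Pou4f2* and none held *Tfap2b*. The markers therefore went against the label RGCs in the explant cells with *Slc18a3*. The cells without it held more RGC transcripts as a set but were mixed, since 43 of the 168 held *Tfap2b*. Their RGC markers summed to 4453 CPM, against 11646 CPM in P0 RGCs, where 11 of the 12 had a row. The paper describes its explants as lacking viable RGCs.

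The GABA enzyme genes showed unlike shares within the annotated RGCs, where none of the 4 GABA genes passed the filter for a test. *Gad1*, which encodes the GABA-making enzyme GAD67, was found in 15 of the 32 cells with *Slc18a3* (46.9%, interval 29.1 to 65.3) and 8 of the 168 without (4.76%, interval 2.08 to 9.17). *Gad2*, which encodes GAD65, was found in 2 (6.25%) and 10 (5.95%). In explant amacrine cells the order was the opposite, with *Gad1* in 18.1% and *Gad2* in 63.2%.

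**Figure D2:**
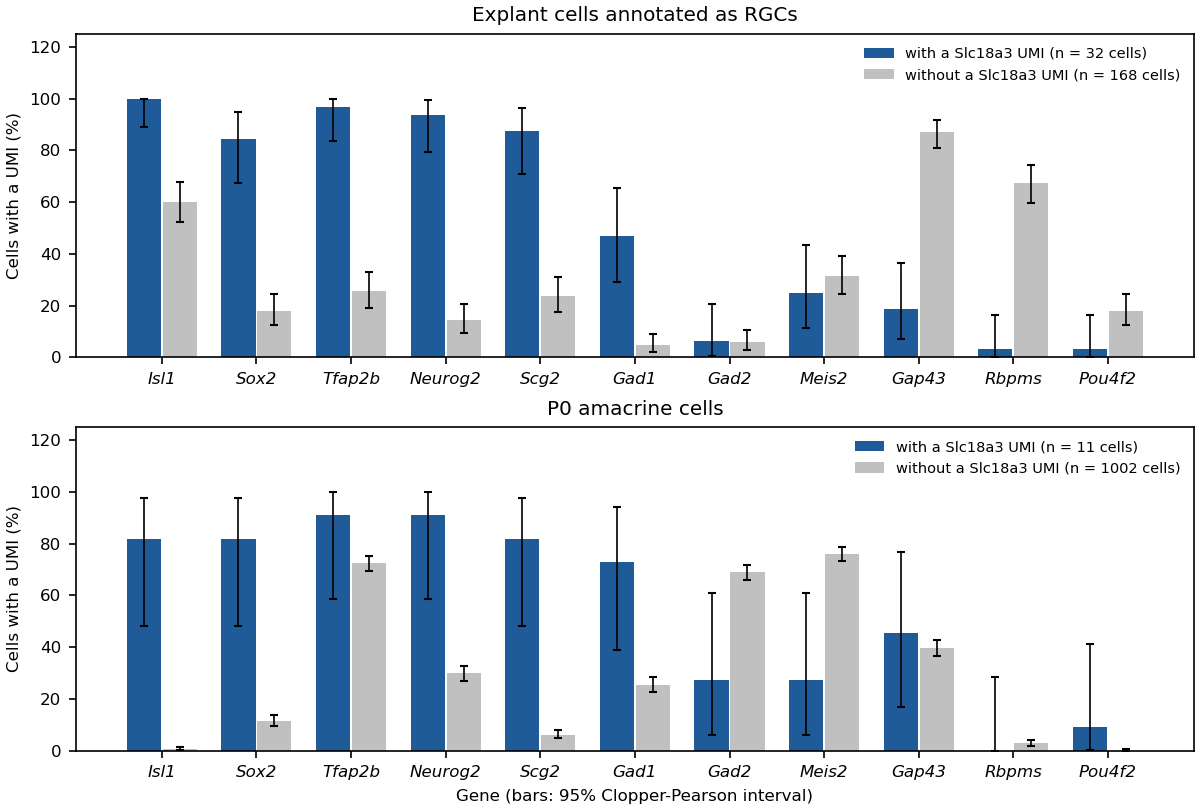
Share of cells (%) with a UMI of 11 other genes among explant cells annotated as RGCs (top) and P0 amacrine cells (bottom), split into cells with (blue) and without (grey) a *Slc18a3* UMI; error bars are 95% Clopper-Pearson intervals over cells. In both panels cells with *Slc18a3* more often hold *Isl1*, *Sox2*, *Neurog2*, *Scg2* and *Gad1*, while *Gap43* separates the sets only in the explants, where it is in 18.8 and 86.9% of cells.

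UMIs were summed per explant over annotated RGCs with and without *Slc18a3* and tested by edgeR with the explant as a block, a comparison added after the data were seen. Of 285 genes that passed the filter on low counts, 106 were called (37.2%), 34 higher (11.9%) and 72 lower (25.3%) in cells with *Slc18a3*. *Sox2* was higher (760 CPM as the median of 8 explants against 90.9 CPM, log2 fold change 2.13 ± 0.32 SE, adjusted p = 9.49e-06), in 7 of 8 explants. *Tfap2b* was higher in 8 of 8 explants (log2 fold change 1.60 ± 0.25, adjusted p = 1.57e-05) and *Isl1* in 7 of 8 (1.13 ± 0.23, adjusted p = 0.000368). *Gap43* was lower in 8 of 8 (−5.40 ± 0.35, adjusted p = 2.81e-12). Outside the lists, *Nnat* (1.49 ± 0.25), *Tagln3* (1.37 ± 0.19) and *Foxn3* (1.35 ± 0.29) were higher in 8 of 8 explants each. Of the starburst identity and wiring list, 2 of 9 genes passed the filter, *Isl1* and *Sox2*, and both were higher. Of 12 RGC markers 1 was tested, *Gap43*, and it was lower, and of 9 amacrine markers 2 were tested and 1 was higher. The filter asked for enough counts in as many sums as a group holds. A gene could thus pass through the group where it was high. *Gap43*, for example, had a median of 0 CPM with *Slc18a3* and 1543 CPM without. The directions in these lists are therefore a description and no support for an identity of the cells. With no filter on low counts *Isl1* lost its call (log2 fold change 0.75, adjusted p = 0.172), and so did *Foxn3* (0.98, adjusted p = 0.0816).

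Mitochondrial transcripts differed between the same cells. The median mitochondrial share was 10.2% in annotated RGCs with *Slc18a3* and 21.7% in those without, against 5.53 to 5.77% in the other explant types, and the median depth was 4254.5 and 2992.5 UMIs. Their part in the differences above was not tested.

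In P0 retinas, most of the 11 amacrine cells with *Slc18a3* also held other members. Of them 9 held *Megf11* (81.8%), 8 *Megf10* (72.7%), 6 *Fezf1* (54.5%) and 3 *Chat* (27.3%), against 24 (2.40%), 22 (2.20%), 2 (0.200%) and 1 (0.0998%) of the 1002 without it. The 9 with *Megf11* held 17 to 38 *Isl1* UMIs and 4 to 21 *Sox2* UMIs each. The other 2, 1 of the wild type and 1 of a heterozygous retina, held 1 *Slc18a3* UMI each, no *Isl1*, *Sox2* or other member, and 3 and 2 *Gad2* UMIs. In all, 15 P0 amacrine cells held *Isl1*, with 274 UMIs, and 239 of these were in the 9 cells with *Slc18a3*. Another 2 cells without *Slc18a3*, 1 from each retina labelled knockout, held *Isl1* (18 and 12 UMIs), *Fezf1* (3 and 8), *Megf10* (4 and 2), *Megf11* (2 and 3) and *Sox2* (6 and 9), and had 39 and 8 *Gap43* UMIs.

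**Figure D3:**
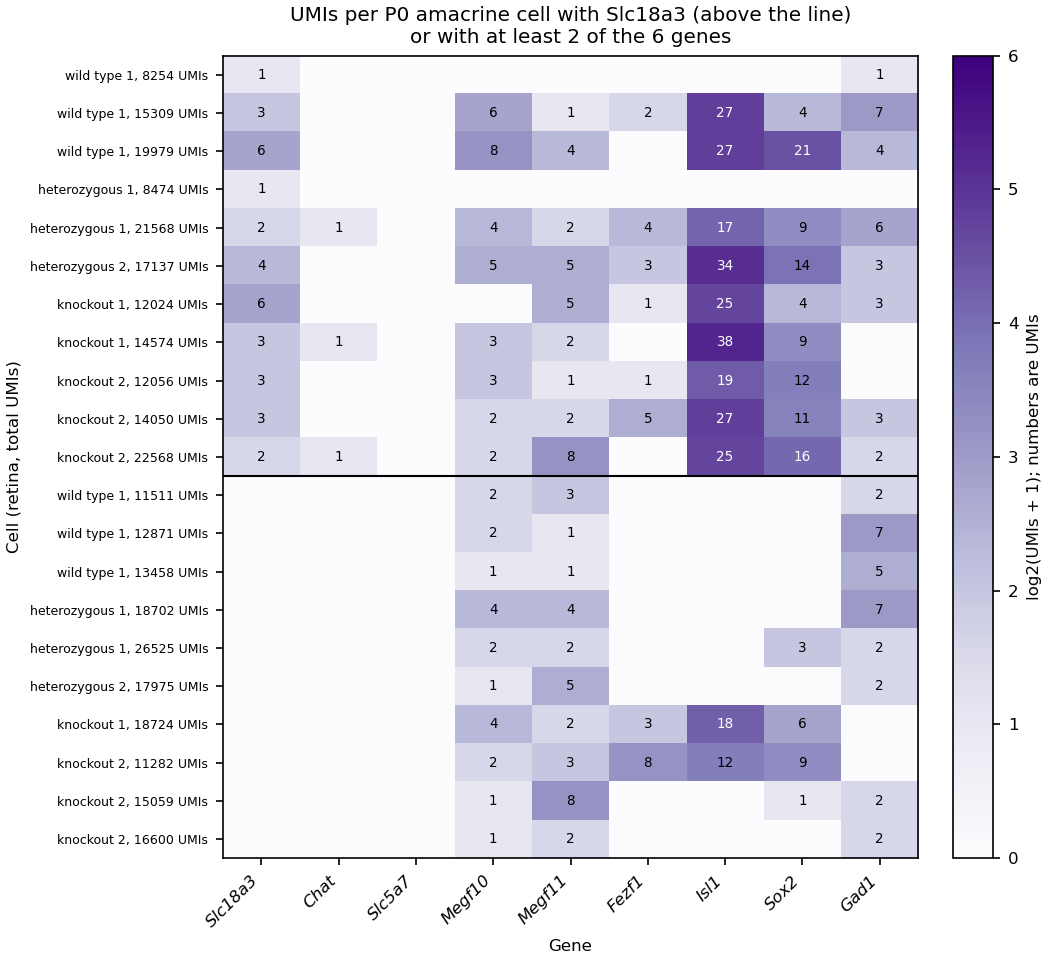
UMIs of 9 genes (columns) in each of 21 P0 amacrine cells (rows, with the retina and the total UMIs): the 11 cells with *Slc18a3* above the line and 10 more cells with at least 2 of the 6 genes below it; colour is log2(UMIs + 1) and numbers are UMIs. *Isl1* is present in 9 of the 11 upper rows and in 2 lower rows, and both of these also hold *Fezf1*.

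Genes other than the 6 were tested between P0 amacrine cells with and without *Slc18a3*, with the retina as a block. Of 7132 genes, 450 were called (6.31%), 131 higher (1.84%) and 319 lower (4.47%), over a median log2 fold change of −0.29. These p-values rest on 11 cells, which were also deeper, with a median of 14574 UMIs against 7288, and had a mitochondrial share of 4.85% against 4.12%. The filter also let genes pass through the group where they were high. In cells without *Slc18a3*, medians were 1.18 CPM for *Isl1*, 0.589 CPM for *Slc10a4* and 0 CPM for *Cpne4* and *Gm2990*. The p-values of such genes and the directions in the lists below are therefore a description of these sums and no separate support.

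The starburst transcription factor genes *Isl1* and *Sox2* were higher. *Isl1* had 566 to 2369 CPM over the 5 retinas in cells with *Slc18a3* and 0 to 13.8 CPM in cells without (log2 fold change 8.19 ± 0.26, adjusted p = 1.75e-205). *Sox2* had 299.6 to 817 CPM and 20.6 to 33.6 CPM (4.11 ± 0.30, adjusted p = 8.07e-40). Each of these ranges was apart from the other in all 5 retinas. Of the starburst list, 5 of 9 genes were tested, 2 were higher and none lower, with a median log2 fold change of 0.80. The others were *Sema6a* (0.80, adjusted p = 0.127) and *Plxna2* (0.044, adjusted p = 0.973), which encode a guidance signal and its receptor, and *Pcdh17*, a protocadherin gene (−0.19, adjusted p = 0.863).

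*Scg2*, which encodes a granin of dense-core vesicles, was at 1089 to 2509 CPM in cells with *Slc18a3* and 7.86 to 15.2 CPM in those without (6.45 ± 0.23, adjusted p = 8.38e-167). *Slc10a4*, which encodes a transporter of cholinergic and monoaminergic vesicles, was at 23.0 to 233 and 0.541 to 2.14 CPM (5.85 ± 0.68, adjusted p = 2.23e-13). *Cpne4*, a copine gene, had 18 UMIs in 8 of the 11 cells and 7 UMIs in 2 of the 1002. *Gm2990*, a predicted gene, had 21 UMIs in 9 of the 11 and 1 UMI in the 1002. *Neurog2* was higher in 5 of 5 retinas (2.37 ± 0.27, adjusted p = 4.90e-16). *Npy*, a neuropeptide gene, was higher in 3 of 5 (2.45 ± 0.40, adjusted p = 1.39e-07) and lost its call with DESeq2 (1.27, adjusted p = 0.748).

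Most general amacrine markers were lower. Of 9 amacrine markers 8 were tested, of which 6 were lower, 1 was higher, and the median log2 fold change was −1.89; *Gad1* and *Gad2* are on this list and on the GABA list. Of the list of other amacrine subtypes, 2 of 12 genes were tested: *Npy* was higher and *Dab1* was not called (−0.89, adjusted p = 0.726). The list summed to 259 CPM with *Slc18a3* and 114 CPM without. *Npy* alone made up 37 of its 43 UMIs with *Slc18a3* and 294 of 923 without, so the higher sum rests on that gene. *Meis2*, a homeobox gene of GABAergic amacrine cells, had 0 to 1065 CPM in cells with *Slc18a3*, with a median of 0, and 1811 to 1958 CPM in those without (−2.90 ± 0.21, adjusted p = 4.46e-41). *Ptf1a*, a factor of amacrine and horizontal cell fate, was lower (−3.24 ± 0.59, adjusted p = 2.89e-06), as was *Hes6* of neurogenic progenitors (−3.05 ± 0.53, adjusted p = 7.51e-07). The GABA enzymes went opposite ways. *Gad2* was lower (−3.33 ± 0.43, adjusted p = 1.43e-12), and *Gad1*, named beyond the rule after its values were seen, was higher (1.49 ± 0.40, adjusted p = 0.00451). *Slc32a1*, the vesicular GABA transporter gene, did not pass (0.38, adjusted p = 0.767). Of 13 acetylcholine receptor genes 2 were tested, and *Chrna4*, also named after its values were seen, was higher (1.94 ± 0.50, adjusted p = 0.00299) while *Chrnb2* was not called (0.043, adjusted p = 0.995). Of 8 genes of choline supply and acetylcholine breakdown 2 were tested, *Chka* (−0.49) and *Chkb* (−0.049), with an adjusted p of 0.767 and 0.993.

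Markers of other cell types in the 11 cells were at or near 0 for photoreceptors (0 UMIs over 6 markers), cones (0 over 4) and microglia or endothelium (0 over 4, with *Cldn5* at 596 UMIs in the other 1002 cells). Primary progenitor markers summed to 114 CPM against 345 CPM, and *Ccnd1*, which encodes a cyclin, was lower (−1.93 ± 0.45, adjusted p = 0.000709), a call lost without a heterozygous retina (−1.44, adjusted p = 0.0559). Müller glia markers summed to 96.4 CPM against 274 CPM, and *Dkk3*, which encodes a Wnt modulator, was lower (−2.00 ± 0.48, adjusted p = 0.000951). Horizontal cell markers summed to 145 and 260 CPM and rod markers to 42.2 and 83.0 CPM. Neurogenic progenitor markers summed to 488 CPM with *Slc18a3*, of which *Neurog2* made up 446 CPM, and to 325 CPM without. All 239 UMIs of the bipolar cell markers in the 11 cells were those of *Isl1*, which that list shares. RGC markers summed to 590 CPM against 344 CPM, and among them *Nefl* (−1.80, adjusted p = 0.0467) and *Nefm* (−1.79, adjusted p = 0.0444) were lower. With each cell thinned to 2000 UMIs, 5 cells in 3 retinas kept a *Slc18a3* UMI and 65 genes were called. *Isl1*, *Sox2*, *Scg2* and *Meis2* were still past the threshold then, while *Neurog2* (log2 fold change 0.14, adjusted p = 0.959), *Gad2* (−2.80, adjusted p = 0.349) and *Hes6*, *Ptf1a*, *Cldn5*, *Ccnd1* and *Dkk3* (each adjusted p = 0.437, with estimates still below 0 and standard errors of 4.30 to 5.09) were not.

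The explant cells with *Slc18a3* shared several of these features, compared here by level and without a test because the cells they were set against differ. *Scg2* was at 1086 CPM in the annotated RGCs with *Slc18a3* (28 of 32 cells) and 1301 CPM in the P0 amacrine cells with it, *Neurog2* at 791 and 446 CPM, *Isl1* at 1745 and 1440 CPM, *Sox2* at 799 and 602 CPM, and *Gm2990* at 116 and 127 CPM. *Meis2* was at 124 and 325 CPM, against 1893 CPM in P0 amacrine cells without *Slc18a3*. *Fezf1* was at 46.5 and 96.4 CPM and *Chat* at 38.8 and 18.1 CPM. Of the 285 genes tested in both splits, 113 were called at P0 and 106 in explants (37.2%), and 35 were called in both. These 35 were 31.0% of the calls at P0 and 33.0% of those in explants. Genes called at P0 were thus called in explants no more often than all 285 genes. Of the 35, 20 had the same sign. *Syt4* (1.54 at P0 and −1.88 in explants), *Dpysl3* (1.47 and −0.93) and *Ina* (1.40 and −1.20), named after their values were seen, were higher at P0 and lower in explants, and ribosomal protein genes such as *Rpl35* (−0.71 and 0.72) went the opposite way.

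None of the 4 explant amacrine cells and 6 explant photoreceptors with a *Slc18a3* UMI held *Isl1*, which all 32 annotated RGCs with *Slc18a3* held. Of these 10 cells, 1 amacrine cell held *Megf10* and none held *Megf11*. All 4 amacrine cells held *Tfap2b*, and all 6 photoreceptors held *Otx2*, a photoreceptor factor gene. Between explant amacrine cells with and without *Slc18a3*, edgeR called 0 of 2715 genes (0%), with 189 at an unadjusted p under 0.05, and DESeq2 called 0. The comparison rests on 4 cells, and on simulated counts its edgeR test recovered 12 of 181 genes changed 4-fold (6.63%).

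At P14, *Megf11* and *Megf10* in amacrine cells were found mainly in cells with horizontal cell transcripts. Of the 68 annotated amacrine cells, 11 held at least 3 of the 5 horizontal markers *Onecut1*, *Onecut2*, *Lhx1*, *Prox1* and *Calb1*, and these held 130 of the 140 *Megf11* UMIs (313 CPM against 28.1 CPM in the other 57) and 22 of the 23 *Megf10* UMIs (53.0 against 2.81 CPM). They were deeper, with a median of 29044 UMIs against 4348. All 63 *Megf11* UMIs of the wild type, all 16 and all 22 of a heterozygous retina and a retina labelled knockout, and 29 of 39 of the second retina labelled knockout were in them. The remaining 10 UMIs were in 2 cells of that last retina, with 7 and 3 *Megf11* UMIs, which held 3 and 2 *Chat* UMIs, 4 and 2 *Isl1* UMIs and 0 and 1 horizontal markers. No *Chat* UMI was in a cell with 3 or more horizontal markers.

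**Figure D4:**
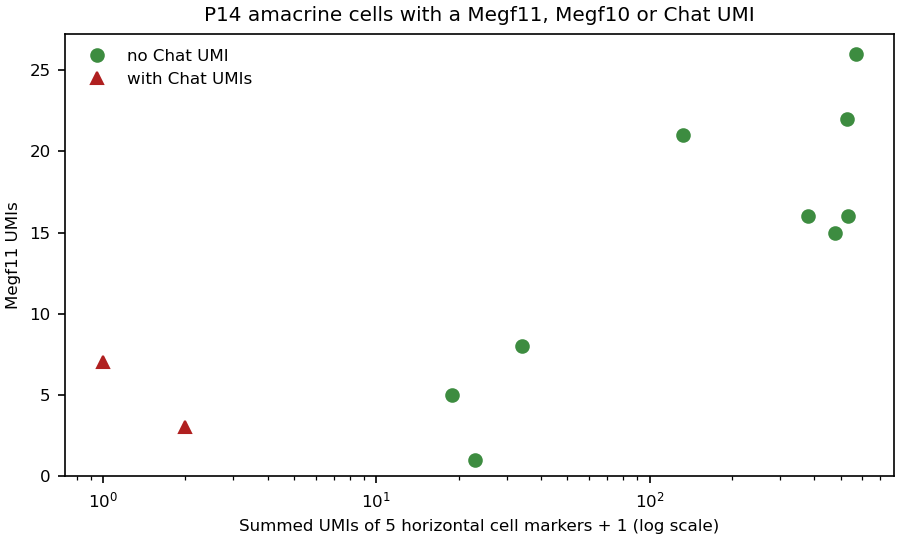
*Megf11* UMIs (y axis) against the summed UMIs of 5 horizontal cell markers plus 1 (x axis, log scale) in the 11 P14 amacrine cells with a UMI of *Megf11*, *Megf10* or *Chat*; each point is a cell. The 2 cells with *Chat* UMIs (triangles) have 0 and 1 horizontal marker UMIs and 7 and 3 *Megf11* UMIs.

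Cells of this kind were also present at P0. Of the amacrine cells, 24 held 3 or more horizontal markers, and these held 43 of the 85 *Megf11* UMIs and 19 of the 66 *Megf10* UMIs but no *Slc18a3*. The 11 cells with *Slc18a3* held 30 *Megf11* and 33 *Megf10* UMIs, and the remaining 978 cells held 12 and 14. A level of *Megf11* or *Megf10* over all annotated amacrine cells thus adds cells with horizontal markers to cells with *Slc18a3*.

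The Sstr2 agonist was applied to explants to ask how receptor signalling changes the cells formed, and the 6 genes were compared between 500 and 0 nM. In the summed counts of an annotated type, fewer cells that carry a gene and less of its RNA per cell cannot be told apart. In annotated RGCs, the *Slc18a3* level was 178 and 77.4 CPM without agonist (6 and 1 UMIs). It was 49.0 and 81.5 with 5 nM, 74.1 and 106 with 50 nM, and 116 and 48.5 with 500 nM (5 and 10 UMIs). It was detected in all 8 explants, and the values at 0 and 500 nM overlapped. *Megf10* had 118 and 0 CPM without agonist, then 196 and 86.6 with 5 nM, 49.4 and 35.2 with 50 nM, and 162 and 87.3 with 500 nM. *Megf11* was at 118 and 0, 110 and 76.4, 123 and 17.6, and 69.4 and 63.1 CPM at the same doses. The explant with no UMI of either held 5 annotated RGCs.

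None of the 6 genes passed the filter on low counts in annotated RGCs or amacrine cells of the explants. edgeR called 0 of the 1056 genes tested in annotated RGCs (0%), with 82 at an unadjusted p under 0.05, and DESeq2 called 0. Without the filter, the log2 fold change at 500 nM in annotated RGCs was −0.86 ± 0.78 for *Slc18a3*, 0.65 ± 0.83 for *Megf10* (both adjusted p = 0.966) and −0.016 ± 0.89 for *Megf11* (adjusted p = 1.00). In explant amacrine cells, 22 of 8188 genes were called (0.269%; 18 higher, 0.22%, and 4 lower, 0.0489%), and none of the 5 starburst, 2 choline, 3 acetylcholine receptor or 4 GABA genes tested was among them. Called genes of the marker lists were *Apoe* (1.98 ± 0.26) and the microglial gene *C1qa* (3.38 ± 0.44), the progenitor gene *Ccnd1* (1.08 ± 0.23) and the photoreceptor gene *Otx2* (1.34 ± 0.29), all higher, and the endothelial gene *Cldn5* (−2.71 ± 0.45), lower. DESeq2 called none of these 5 (adjusted p = 1.00 each) and 1 gene in all. Without the first 0 nM explant, *Cldn5* was at −0.91 (adjusted p = 0.958), *Ccnd1* at 0.74 (adjusted p = 0.860), *Otx2* at 1.00 (adjusted p = 0.807) and *Apoe* at 4.51, still called. Without the second 500 nM explant, *Ccnd1* was at 0.45 and *Otx2* at 0.79 (both adjusted p = 1.00). The 22 calls also held X- and Y-linked transcripts, named after their values were seen: *Xist* (1.17 ± 0.11) and *Tsix* (0.97 ± 0.21) were higher at 500 nM, and *Eif2s3y* (−6.06 ± 0.69) and *Ddx3y* (−5.12 ± 0.79) were lower. These sex-linked transcripts thus differed between the explants compared, and their part in the other differences was not tested.

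The *Sstr2* allelic series asked whether loss of the receptor changes these cells in vivo. In P0 amacrine cells the wild type had 5.74 CPM of *Slc18a3* (10 UMIs). Heterozygous retinas had 2.10 and 2.15 (3 and 4 UMIs), and retinas labelled knockout 6.10 and 4.51 (9 and 8 UMIs). The wild type lay between the retinas labelled knockout, and both heterozygous retinas were lower. With 2 retinas against 3 there are 10 splits, so an exact permutation test cannot give a p below 0.1. The gene did not pass the filter, and without it edgeR gave a log2 fold change of 0.64 ± 0.55 (adjusted p = 0.946). *Fezf1* levels were 1.15 CPM for the wild type, 2.80 and 1.61 for heterozygous retinas and 2.71 and 7.89 for those labelled knockout, the last from 14 UMIs in 3 cells (1.58 ± 0.63 without the filter, adjusted p = 0.726). *Megf10* was at 12.1, 9.09 and 4.29, and 5.42 and 9.02 CPM in the same order, and *Megf11* at 11.5, 6.99 and 9.65, and 6.10 and 15.8 CPM. For *Megf10* both retinas labelled knockout lay within the range of the other 3, and for *Megf11* they were the lowest and the highest of the 5. *Megf10* and *Megf11* were the 2 members tested, and neither was among the genes called (0.0102% of 9813): the log2 fold change against the other retinas was −0.18 ± 0.46 and 0.26 ± 0.40 (both adjusted p = 0.998), and each changed sign when single retinas were left out.

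In P0 primary progenitors, where *Megf10* had more UMIs (120), the wild type had 3.03 CPM, heterozygous retinas 4.82 and 5.85 and retinas labelled knockout 4.60 and 4.21 (log2 fold change −0.065 ± 0.33, adjusted p = 1.00, with 0.00873% of genes called). In P14 Müller glia *Megf10* levels were 54.2 CPM for the wild type, 60.2 and 54.0 for heterozygous retinas and 57.3 and 70.1 for those labelled knockout (0.15 ± 0.23, adjusted p = 1.00, with 0.0128% of genes called). A *Megf10* UMI was found in 36 to 52.8% of Müller glia of each retina. In P14 amacrine cells *Megf11* levels were 195 CPM for the wild type, 240 and 0 for heterozygous retinas, which held 4 annotated cells each, and 302 and 91.7 for those labelled knockout (0.43 ± 0.84, adjusted p = 0.999, with 0.0334% of genes called). *Megf10* in these cells was at 21.7 CPM, 15.0 and 0 CPM, and 46.5 and 37.5 CPM in the same order, from 23 UMIs that were nearly all in the cells with horizontal markers. Both retinas labelled knockout were above the other 3, and without the filter, which the gene did not pass, edgeR gave a log2 fold change of 1.11 ± 0.89 (adjusted p = 0.927).

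**Figure D5:**
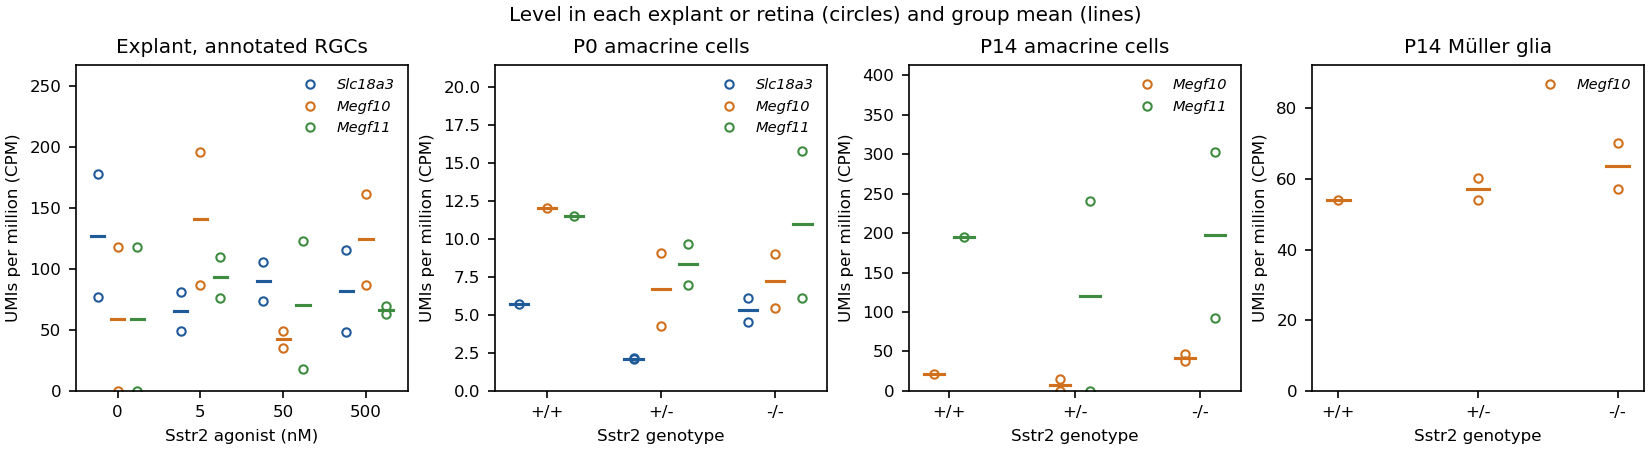
Level (CPM) of *Slc18a3*, *Megf10* and *Megf11* in each explant or retina (circles) with the group mean (lines), for explant cells annotated as RGCs by agonist dose (nM) and for P0 amacrine cells, P14 amacrine cells and P14 Müller glia by *Sstr2* genotype; axes start at 0 and differ between panels. At 500 and 0 nM the *Slc18a3* values overlap; in P0 amacrine cells both heterozygous retinas (2.10 and 2.15 CPM) lie below the other 3 for *Slc18a3*, and in P14 amacrine cells both retinas labelled knockout (46.5 and 37.5 CPM) lie above the other 3 for *Megf10*.

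Likeness of other genes to *Slc18a3* was read from log2(CPM + 1) over the sums per sample and cell type, which share library and depth, and is a description. Over the 40 explant sums the highest Pearson correlations were those of the mitochondrial genes mt-Co3 (0.94), mt-Nd4 (0.94), mt-Atp6 (0.94), mt-Co2 (0.93) and mt-Cytb (0.93), the transcripts that were also high in annotated RGCs without *Slc18a3*. *Megf11* (0.79) and *Megf10* (0.69) were lower. Over the 25 P0 sums they were *Has2* (0.96), *Gbx2* (0.96), *Gad1* (0.96), *Kcna5* (0.95) and *Zfp385c* (0.95), with *Megf11* at 0.85 and *Megf10* at 0.67. Such sums do not show which cells hold a gene: *Has2*, a hyaluronan synthase gene, was in 9 of the 11 P0 cells with *Slc18a3* (48 of 1002 without), whereas *Gbx2*, a homeobox gene, was in none of the 11 and 60 of the 1002. At P14 the single *Slc18a3* UMI allowed no reading.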

How the data were processed

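The deposited values were unnormalized UMI counts of each gene in each cell, beside a table of the sample and cell type of each cell; the processing notes name Cell Ranger 3.1.0, Seurat 3 and mm10. Cells and cell types were used as deposited. For each sample, counts were added up over the cells of a type, scaled to CPM for levels, and tested across samples with edgeR 4.0.16 (TMM, filterByExpr, quasi-likelihood test, Benjamini-Hochberg adjustment, threshold 0.05). DESeq2 1.42.0, DESeq2 size factors, no filter, leaving out each sample, cells thinned to 2000 UMIs and leaving out the top 5% of Scrublet scores (scanpy 1.11.5) were alternatives. Scrublet itself called 115 explant, 7 P0 and 2 P14 cells, too few at P0 and P14 to count as working. Comparisons of cells with and without *Slc18a3* had the sample as a block, and those in annotated RGCs and of *Megf10* in P0 progenitors and P14 Müller glia were added after the data were seen.

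Shares have exact Clopper-Pearson 95% intervals, and the limits given for a share of 0 are their upper bounds. Splits by a *Slc18a3* UMI also follow depth, because deeper cells more often hold a UMI. Named genes were the 6 members, list genes past the threshold (at most 12 per comparison by adjusted p), the 5 largest rises in each split and the 5 closest correlations; others are marked. The members and lists were chosen with earlier results of these data known. Each test was checked on simulated counts in which some genes were changed 4-fold. The check recovered 1 of 173 (0.578%) for genotype in P14 amacrine cells and 12 of 181 (6.63%) for the explant amacrine *Slc18a3* split. The P0 amacrine split recovered 102 of 196 (52.0%), and the other tests 86.9 to 100%. Where recovery was low, a lack of calls says little about changes of this size. Positions are from GENCODE M21, and promoter sequences from RefSeq; of the 6 genes, promoters of *Slc18a3* and *Slc5a7* are shown. Results for some listed genes are not reported here.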

Additional observations from a re-analysis of the deposited data

How the results depend on the processing

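Between 500 and 0 nM in explant amacrine cells, 22 genes were called, against 1 with DESeq2, 39 with no filter, 10 with a slope over dose and 18 to 35 with single explants left out. In annotated RGCs the 0 calls became 2 with no filter, 4 with the slope and 0 to 2 with an explant left out. For retinas labelled knockout, the 1 call in P0 amacrine cells became 54 with no filter and 1 to 8 with a retina left out. The 1 call in P14 amacrine cells became 0 with DESeq2, DESeq2 size factors or the wild type alone as control, 5 with no filter and 0 to 16 with a retina left out. Between cells with and without *Slc18a3*, the 0 calls in explant amacrine cells became 1 with DESeq2 size factors, 22 with no filter, 10 thinned, 38 without the sample block and 0 to 4 with an explant left out. The 450 calls of 7132 genes tested in P0 amacrine cells fell to 65 of 2899 thinned. The 106 of 285 in annotated RGCs became 581 of 12812 with no filter and 19 of 103 thinned. With an explant left out they ran from 62 of 226 to 146 of 338. The number of genes tested also differed between the other settings, so the counts are not shares. The cause of these shifts was not tested.

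No member passed the threshold by dose or genotype, and signs turned in 8 settings. In P0 amacrine cells *Megf10* (−0.18) was 0.20 without the wild type and 0.13 without the first retina labelled knockout, and *Megf11* (0.26) was −0.63 without the second and −0.013 against the wild type alone; with single retinas left out they ran from −0.62 to 0.20 and from −0.63 to 0.75. In P14 amacrine cells *Megf11* (0.43) was −0.94 without the first retina labelled knockout and 1.15 without the second. In P0 progenitors *Megf10* (−0.065) was 0.14 without the second heterozygous retina, 0.0096 without the second labelled knockout and 0.51 against the wild type alone, and −0.28 to 0.14 over the retinas left out. Single named genes lost their call in 26 settings. Samples could not be paired across doses or genotypes because the labels give no replicate number. The *Slc18a3* split could not be run at P14, where no amacrine cell held a UMI. With 11, 32 and 4 cells behind the splits and 68 amacrine cells at P14, depth and cell number limit what could be detected.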
